A study of Homo sapiens with 18 samples.

Results

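HCC827 cells that carried a lacZ control lentivirus were set against parental HCC827 cells across all annotated genes. The members were the 3 arrays titled as the pLX303 lacZ control and the 3 arrays titled as parental, 6 of the 18 arrays of the series, and they were chosen by title alone. HCC827 is an established human lung adenocarcinoma line with a mutant EGFR gene, which encodes the receptor for epidermal growth factor. The study asked what TGFB1, loss of the epithelial cadherin gene CDH1 or the transcription factor SNAIL change in this line, and it had 6 groups of 3 arrays. These were cells with the lacZ virus, cells with a non-target hairpin virus in the pLKO1 vector (shNT), cells given the growth factor TGFB1, cells with a virus for V5-tagged SNAIL, cells with a pLKO1 hairpin against CDH1, and untreated parental cells.

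The lacZ virus, whose insert encodes a bacterial galactosidase, was the control of the SNAIL virus, and the titles of the SNAIL arrays also carry the word lacZ. The TGFB1 cells had 30 days of treatment by the sample labels and 72 h at 10 ng/mL by the series text, and this was not resolved. All arrays come from the same line, so the EGFR mutation is common to every group. The labels do not state drug selection, passage, whether infected cells were a pool or a clone, or whether parental cells were grown alongside. Virus, insert, selection and time in culture therefore cannot be told apart in this comparison. Titles number the arrays of a group 1, 2 and 3, whereas the descriptions number them 1, 1 and 2, and nothing says that they came from separate cultures. The p-values then measure only the spread between these arrays, which may be technical.

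Lentiviral vectors enter cells as RNA, are copied into DNA and integrate into the genome, and a virus with an inert insert is the usual control for one with an active insert. Cells can sense viral nucleic acid through receptors such as RIGI, IFIH1 and CGAS, which lead to type I interferon and to a large set of interferon-stimulated genes with antiviral functions. Epithelial-mesenchymal transition (EMT) is the loss of epithelial junctions and the gain of mesenchymal cytoskeletal and adhesion proteins, and the transcription factors SNAI1, SNAI2, TWIST1, ZEB1 and ZEB2 are its best known regulators. In lung adenocarcinoma it is known for its link with tolerance to EGFR inhibitors.

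Levels are normalized log2 intensities of 1 probe per gene, and the median over all probes and arrays was 6.82, so that a level below it lay near background. A difference of 1 is a doubling. The deposited median intensity was 198, 230 and 213 on the lacZ arrays and 186, 236 and 234 on the parental arrays. After normalization the lacZ arrays correlated with one another at 0.993 and with parental arrays at 0.982 to 0.985. Against other groups they correlated at 0.977 to 0.988 with shNT, 0.966 to 0.971 with TGFB1, 0.956 to 0.963 with CDH1 hairpin and 0.946 to 0.948 with SNAIL arrays. Each array was closest to an array of its own group. Epithelial markers were high in both groups: EPCAM, an epithelial adhesion protein, had 13.65, 13.76 and 13.64 in lacZ and 13.70, 13.54 and 13.56 in parental cells. List medians of endothelial, haematopoietic, fibroblast and neuroendocrine markers lay between 6.42 and 6.72 on the lacZ arrays and between 6.38 and 6.83 on the parental arrays, near background. In a bulk RNA sample, fewer cells with a transcript and less of it per cell cannot be told apart. No probe for the bacterial insert was used here, so the presence of the virus was not checked.

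Of 20046 genes, 2760 differed between lacZ and parental cells at an adjusted p below 0.05 (13.8% of genes, limma with Benjamini-Hochberg adjustment over all genes). In lacZ cells 1412 were higher (7.04%) and 1348 were lower (6.72%). Changes of at least 1 log2 unit were fewer, with 208 genes higher (1.04%) and 263 lower (1.31%). For 5743 genes (28.6%) all 3 lacZ arrays lay on the same side of all 3 parental arrays. The median difference over all genes was 0. The standard error of a difference was typically 0.128 (median over genes). The highest rises held a gut stem cell glycoprotein, 2 cadherins, osteopontin and an EMT transcription factor, and the deepest falls held 4 interferon-stimulated genes, a beta-defensin and a chemokine.

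**Figure D1:**
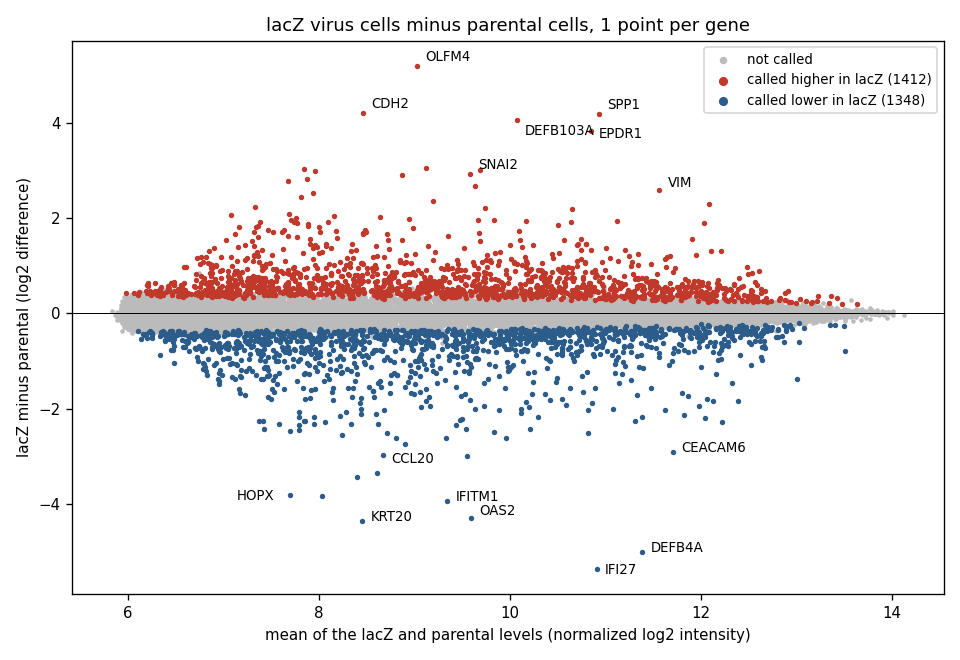
Each point is a gene, with the mean of its lacZ and parental levels (normalized log2 intensity) on the x axis and the lacZ minus parental log2 difference on the y axis. The 1412 genes called higher in lacZ cells are red, the 1348 called lower are blue and the rest grey, and IFI27 lies lowest at -5.37 and OLFM4 highest at 5.20.

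OLFM4, which encodes olfactomedin 4 and marks intestinal stem cells, rose most. Its levels were 11.80, 11.44 and 11.63 in lacZ cells and 6.49, 6.50 and 6.30 in parental cells, so that all parental arrays were near background. The difference was 5.20 ± 0.14 (SE), a 36.7-fold rise (adjusted p = 4.56e-20, limma), and it was 2.79 when all OLFM4 probes were averaged. SPP1, which encodes the secreted phosphoprotein osteopontin, had 13.16, 12.79 and 13.13 in lacZ cells and 8.75, 8.77 and 9.02 in parental cells, an 18.1-fold rise (adjusted p = 9.33e-17, limma). The groups lay far apart on every array for both genes. DEFB103A, an antimicrobial beta-defensin, had 12.18, 12.23 and 11.90 in lacZ cells and 8.04, 8.17 and 7.91 in parental cells, a 16.7-fold rise (adjusted p = 5.84e-19, limma). EPDR1, an ependymin-related secreted protein, had 12.73, 12.91 and 12.64 in lacZ cells and 8.92, 8.97 and 8.90 in parental cells, 14.2-fold higher (adjusted p = 8.92e-20, limma). The other 11 of the 15 largest rises were CDH2, MATN2, ADGRL2, P3H2, MARCHF4, SNAI2, IGFBP6, RFTN1, CDH6, EFHB and VIM. They include the matrix protein matrilin 2 (MATN2, 8.33-fold), a collagen prolyl hydroxylase (P3H2, 8.05-fold), an adhesion receptor of the latrophilin family (ADGRL2, 8.19-fold) and cadherin 6 (CDH6, 6.94-fold). ADGRL2, MARCHF4, RFTN1 and CDH6, like OLFM4 and CDH2, lay near background on all parental arrays, and their folds moved with the background correction: the CDH6 difference of 2.79 was 1.95 with a floor and log2 alone and 3.54 with an offset of 16. With both CDH6 probes averaged it was 1.46, since the other probe differed by 0.12 and was not called.

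Another beta-defensin gene fell. DEFB4A had 8.88, 8.87 and 8.89 in lacZ cells and 13.85, 13.83 and 14.00 in parental cells, a 32.2-fold fall (adjusted p = 1.84e-22, limma). Both genes belong to near-identical copies that probes can fail to separate, as do the CEACAM, HLA and IFITM families below. KRT20, an intestinal and urothelial keratin, had 6.09, 6.16 and 6.56 in lacZ cells and 10.49, 10.45 and 10.95 in parental cells, a 20.5-fold fall (adjusted p = 2.24e-17, limma). In lacZ cells it was near background on every array, and the difference of -4.36 was -2.89 with both probes averaged. S100P, a calcium-binding protein of many carcinomas, was 7.98-fold lower, the cell adhesion gene CEACAM6 7.50-fold lower, the cytidine deaminase APOBEC1 6.68-fold lower and the chitinase-like CHI3L2 10.3-fold lower. TCIM, a small regulator of Wnt signalling, had 6.40, 6.12 and 5.83 in lacZ cells and 9.76, 9.86 and 10.22 in parental cells. All 3 lacZ values were near background, and its difference of -3.83 moved with the background correction, to -2.82 with a floor and log2 alone and -4.79 with an offset of 16. The 15 largest falls also held IFI27, OAS2, IFITM1, MX2, HOPX, CCL20, FMO5 and SAA1.

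**Figure D2:**
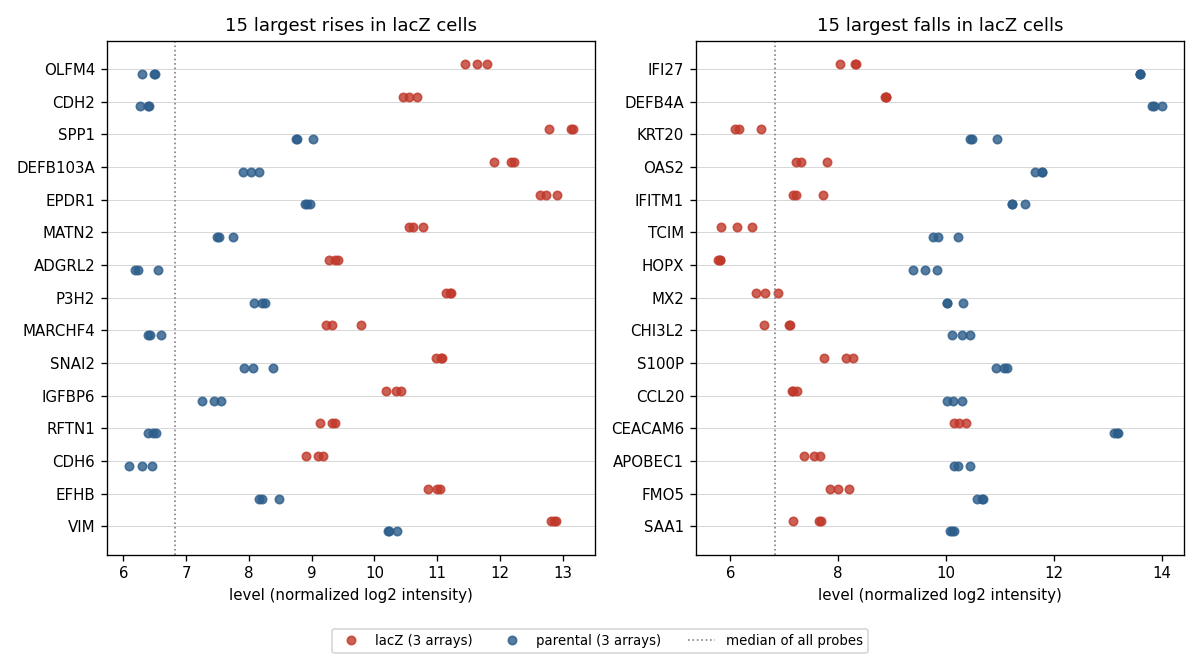
Levels (normalized log2 intensity, x axis) of the 15 genes with the largest called rise (left) and the 15 with the largest called fall (right), with 3 lacZ arrays in red above 3 parental arrays in blue. The dotted line is the median of all probes at 6.82. In all 30 genes the 2 groups do not overlap, and OLFM4, CDH2, ADGRL2, MARCHF4, RFTN1 and CDH6 have all parental points left of the line.

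Interferon-stimulated effector genes, which encode the antiviral proteins made after interferon, were lower in lacZ cells. Of 36 measured, 32 fell, 0 rose and 4 were not called, beside 6.72% of all genes called lower. The median of the list was -1.22, beside 0 over all genes, and the median level of the list was 10.11 to 10.29 on the lacZ arrays and 11.38 to 11.56 on the parental arrays. For 33 of the 36 genes all lacZ arrays lay below all parental arrays, beside 2805 of all 20046 genes. IFI27, a mitochondrial protein of this response (probe ILMN_2058782), had 8.33, 8.04 and 8.31 in lacZ cells and 13.60, 13.59 and 13.59 in parental cells, a 41.3-fold fall of 5.37 ± 0.13 (SE) on the log2 scale (adjusted p = 7.29e-21, limma). OAS2, which makes the 2-5A messenger that activates RNase L, had 7.80, 7.21 and 7.32 in lacZ cells and 11.79, 11.65 and 11.79 in parental cells, a 19.7-fold fall (adjusted p = 1.30e-15, limma). IFITM1, a membrane protein that restricts viral entry, had 7.72, 7.17 and 7.22 in lacZ cells and 11.22, 11.23 and 11.47 in parental cells, 15.3-fold lower (adjusted p = 1.30e-15, limma). In parental cells all 3 genes lay far above the array-wide median of 6.82, and in lacZ cells OAS2 and IFITM1 lay close to it. The antiviral GTPase gene MX2 had 6.65, 6.47 and 6.89 in lacZ cells and 10.01, 10.02 and 10.32 in parental cells, 10.9-fold lower (adjusted p = 1.71e-15, limma), with lacZ values near background. Its relative MX1 was 4.86-fold lower, OAS3 4.53-fold lower, IFIT1, which binds viral RNA ends, 4.07-fold lower, and ISG15, a ubiquitin-like modifier, 2.76-fold lower. The 4 genes not called were IFI6, GBP2, GBP4 and DTX3L. For IFI6 the chosen probe differed by 0.15 (adjusted p = 0.83, limma) with parental arrays at 9.04, 10.48 and 10.36, whereas its other probe fell by 3.34 (adjusted p = 1.02e-14, limma).

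The 250 bases before the start of 4 of these genes are printed because interferon-stimulated genes are known for a shared response element. Among effectors called lower with a match found, these 4 had the largest falls, so each holds a match by choice. XAF1 (-2.49) and MX1 (-2.28) fell more than OAS3 (-2.18) and IFIT1 (-2.03) but had no exact match and were passed over. The printed bases are from RefSeq, build GRCh38.p14, written 5′ to 3′ on the gene's strand. Capitals mark each match to GAAANNGAAA or to TTTCNNTTTC, its form on the other strand, the core of the interferon-stimulated response element and the only motif searched.
IFI27 (chr14:94110486-94110735, + strand): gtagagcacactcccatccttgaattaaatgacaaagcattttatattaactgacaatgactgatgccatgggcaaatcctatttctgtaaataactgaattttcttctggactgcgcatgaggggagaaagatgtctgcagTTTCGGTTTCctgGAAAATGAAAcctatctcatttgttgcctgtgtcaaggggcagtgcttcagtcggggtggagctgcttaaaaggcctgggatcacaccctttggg
IFITM1 (chr11:313790-314039, + strand): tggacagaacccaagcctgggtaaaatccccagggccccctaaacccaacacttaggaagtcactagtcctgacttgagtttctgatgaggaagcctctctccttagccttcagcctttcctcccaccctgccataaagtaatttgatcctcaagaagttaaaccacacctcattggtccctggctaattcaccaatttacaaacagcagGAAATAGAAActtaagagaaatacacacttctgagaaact
OAS3 (chr12:112938224-112938473, + strand): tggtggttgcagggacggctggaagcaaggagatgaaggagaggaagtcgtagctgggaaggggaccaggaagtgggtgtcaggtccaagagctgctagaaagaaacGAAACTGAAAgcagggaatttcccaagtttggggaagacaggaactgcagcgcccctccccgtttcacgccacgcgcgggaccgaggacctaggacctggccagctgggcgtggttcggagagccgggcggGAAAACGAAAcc
IFIT1 (chr10:89392373-89392622, + strand): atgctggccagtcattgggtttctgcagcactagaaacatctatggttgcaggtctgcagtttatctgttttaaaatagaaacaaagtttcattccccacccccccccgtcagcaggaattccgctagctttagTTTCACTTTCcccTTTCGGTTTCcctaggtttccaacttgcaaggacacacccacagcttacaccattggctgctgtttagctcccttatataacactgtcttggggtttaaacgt
The matches begin 95 and 108 bases before the start in IFI27, 40 before it in IFITM1, 143 and 12 before it in OAS3, and 116 and 103 before it in IFIT1. In IFI27 and IFIT1 a pair of matches lies 3 bases apart. Of the 36 effectors, 29 had an entry in the promoter table, and 18 of these 29 held the motif (62.1%, exact 95% interval 42.3 to 79.3%), beside 839 of 27305 promoters of the same length (3.07%). Of the 32 effectors called lower in lacZ cells 26 had an entry, and 17 of these 26 held it (65.4%). A match is a description of these letters and says nothing of binding in HCC827 cells.

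**Figure D3:**
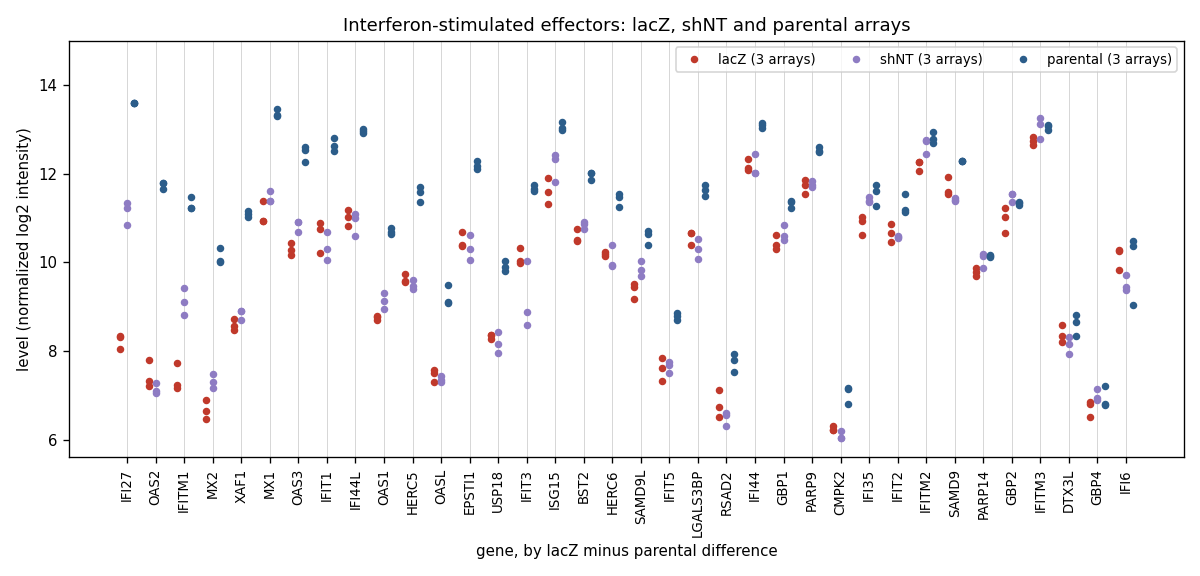
Levels (normalized log2 intensity, y axis) of the 36 interferon-stimulated effectors, ordered by the lacZ minus parental difference, with 3 lacZ arrays in red, 3 shNT arrays in purple and 3 parental arrays in blue. For 33 genes the red points all lie below the blue ones, beside 2805 of all 20046 genes. For IFI27 and IFITM1 the purple points lie between red and blue, as they do for some other genes such as MX2, OAS1 and OAS3.

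Upstream of these effectors fewer genes changed. Of 23 interferon ligands, receptors and signalling genes 4 fell and 0 rose, with a median of -0.12 (17.4% called, beside 13.8% of all genes). IRF7, the transcription factor that amplifies type I interferon, had 9.20, 9.02 and 9.12 in lacZ cells and 11.13, 11.12 and 11.10 in parental cells, a 4.0-fold fall (adjusted p = 9.69e-12, limma). IRF9, the DNA-binding subunit of the interferon-activated complex ISGF3, fell 1.96-fold and the exonuclease gene ISG20 fell by 0.99. IFNB1 (-0.38) and the type I receptor genes IFNAR1 (0.17) and IFNAR2 (-0.14) were not called. Of 27 sensors of foreign nucleic acid and retroviral restriction factors 9 fell and 1 rose (37% called, beside 13.8% of all genes). The RNA helicase genes DHX58, RIGI and IFIH1 fell 3.45-fold, 2.17-fold and 1.96-fold. CGAS, the sensor of cytosolic DNA, was the single rise, with 8.66, 8.78 and 8.62 in lacZ cells and 8.11, 8.29 and 8.18 in parental cells (1.41-fold, adjusted p = 0.00524, limma). The restriction factor genes SAMHD1 (-0.13), TRIM5 (0.08) and APOBEC3G (-0.25) were not called.

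In antigen presentation, called genes of class I fell and most called genes of class II rose. Of 17 genes of MHC class I presentation, which shows cytosolic peptides on all nucleated cells, 9 fell and 0 rose, with a median of -0.38, beside 6.72% of all genes called lower. HLA-B had 10.88, 10.91 and 11.21 in lacZ cells and 12.75, 12.64 and 12.82 in parental cells, a 3.33-fold fall (adjusted p = 5.18e-13, limma). HLA-F fell 2.75-fold and the peptide transporter gene TAP1 2.16-fold, and B2M was not called (-0.22). Of 13 genes of MHC class II presentation, normally a function of immune cells, 6 rose and 1 fell, beside 7.04% of all genes called higher. HLA-DMB, which loads peptide on class II molecules, had 10.94, 10.40 and 10.82 in lacZ cells and 9.16, 9.32 and 9.37 in parental cells, a 2.71-fold rise (adjusted p = 1.44e-09, limma). HLA-DMA rose 1.99-fold, HLA-DRA 1.89-fold and the invariant chain gene CD74 1.84-fold. The other HLA-DRA probe rose by more, 2.74 against 0.92 on the log2 scale (adjusted p = 1.13e-13, limma). The master regulator gene CIITA was not called (0.07), and CTSS, a protease that trims the invariant chain, fell 2.46-fold. CTSS averaged 6.69 in lacZ cells, near background, and its log2 difference of -1.3 lay between -1.68 and -0.88 over the alternatives. Of 15 haematopoietic markers CSF1R rose by 1.19 and CD14 fell by 1.61, 13.3% called beside 13.8% of all genes. The leukocyte markers PTPRC (-0.14), CD3D (-0.01) and LYZ (-0.05) were not called. The list median was 6.59 to 6.65 on the lacZ arrays and 6.50 to 6.59 on the parental arrays.

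Among inflammatory cytokines, chemokines and other genes of the NF-kB pathway, falls outnumbered rises. Of 30 measured 12 fell, 3 rose and 15 were not called, with a median of -0.18, beside 6.72% of all genes called lower and 7.04% called higher. CCL20, a chemokine for CCR6-bearing lymphocytes, had 7.14, 7.23 and 7.16 in lacZ cells and 10.02, 10.13 and 10.29 in parental cells, a 7.84-fold fall (adjusted p = 3.57e-17, limma). The acute-phase gene SAA1 fell 6.13-fold, IL1A 5.74-fold, the neutrophil chemokine gene CXCL1 5.10-fold and IL1B 4.98-fold. CXCL8, which encodes interleukin 8, had 10.80, 10.40 and 11.05 in lacZ cells and 12.81, 12.99 and 12.87 in parental cells, 4.41-fold lower (adjusted p = 9.07e-13, limma). The 3 rises were IL6 (2.37-fold), IL11 (1.98-fold) and NFKB2 (0.43 on the log2 scale). The pathway's subunit genes RELA (-0.07) and NFKB1 (-0.14) were not called, and its inhibitors NFKBIA and TNFAIP3 fell by 0.50 and 0.48.

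N-cadherin and vimentin rose while E-cadherin was not called. CDH2, which encodes N-cadherin (probe ILMN_1779228), had 10.55, 10.68 and 10.45 in lacZ cells and 6.41, 6.26 and 6.40 in parental cells. This was an 18.4-fold rise of 4.20 ± 0.10 (SE, adjusted p = 1.05e-20, limma), with parental arrays near background. VIM, the intermediate filament vimentin (probe ILMN_1782538), had 12.87, 12.89 and 12.81 in lacZ cells and 10.36, 10.23 and 10.22 in parental cells, a 6.02-fold rise (adjusted p = 4e-15, limma). CDH1, which encodes E-cadherin (probe ILMN_1770940), had 13.15, 13.13 and 13.09 in lacZ cells and 13.04, 13.06 and 13.00 in parental cells. Its difference of 0.09 had a 95% interval of -0.17 to 0.34 (adjusted p = 0.769, limma). Of 34 mesenchymal cytoskeleton and adhesion genes 18 rose and 4 fell, with a median of 0.34, beside 7.04% of all genes called higher. EMP3 rose 2.91-fold, GLIPR1 2.75-fold and the caveolar coat gene CAVIN1 2.50-fold. The 4 that fell were S100A4 (3.22-fold), the collagen receptor integrin ITGA2 (2.72-fold), ITGB6 (-0.90) and NT5E (-0.62).

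Among 21 EMT transcription factors 4 rose and 2 fell, beside 7.04% and 6.72% of all genes, with a median of 0.01. SNAI2, which encodes the repressor Slug, had 11.07, 11.08 and 10.98 in lacZ cells and 8.38, 8.06 and 7.93 in parental cells, a 7.58-fold rise (adjusted p = 5.75e-15, limma). SNAI1, which encodes SNAIL itself, had 6.29, 6.10 and 6.49 in lacZ cells and 6.03, 6.18 and 6.33 in parental cells. All 6 of these values were near background, and the difference of 0.11 was not called (adjusted p = 0.734, limma). SOX9 rose 2.10-fold and RUNX2 1.78-fold (limma adjusted p = 0.0526, not called, with a floor and log2 alone), PRRX2 fell 3.48-fold, and ZEB1 (0.10), ZEB2 (0.28) and TWIST1 (-0.03) were not called. SNAI2 also differed between lacZ cells and the SNAIL virus cells they serve as control for. The SNAI1 probe was not higher in the cells labelled SNAIL: it averaged 6.16 ± 0.12 in these and 6.29 ± 0.19 in lacZ cells, both near background (SNAIL minus lacZ -0.14, adjusted p = 0.528, limma). Whether this probe detects the V5-tagged SNAIL transcript was not tested. CDH1 was lower in the cells labelled SNAIL, at 7.5 ± 0.04 beside 13.12 ± 0.03 in lacZ cells. Its SNAIL minus lacZ difference was -5.62 (adjusted p = 7.3e-23, limma). SNAI2 was at 7.88 ± 0.08 in the cells labelled SNAIL and 11.04 ± 0.05 in lacZ cells (SD, n = 3 each). The SNAIL minus lacZ difference was -3.17 (adjusted p = 7.60e-17, limma), in a comparison that called 36.6% of genes.

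Most epithelial genes were not called, but the called share was 25.9% of junction genes and 43.8% of identity genes, beside 13.8% of all genes. Of 27 junction genes 4 fell, 3 rose and 20 were not called, with a median of 0.01, beside 6.72% of all genes called lower and 7.04% called higher: CLDN3 fell 2.17-fold, DSC3 fell 1.63-fold (not called with a floor and log2 alone, limma adjusted p = 0.179), and CLDN1, a tight junction gene, rose 1.65-fold. Of 32 genes of epithelial identity 12 fell, 2 rose and 18 were not called, with a median of -0.17, beside the same shares of all genes. The difference between these 2 lists was not tested. RAB25, an epithelial vesicle GTPase, had 10.25, 10.13 and 10.20 in lacZ cells and 12.23, 12.45 and 12.64 in parental cells, a 4.75-fold fall (adjusted p = 2.65e-13, limma). CEACAM5 fell 5.08-fold, CEACAM1 4.54-fold and the stress keratin gene KRT16 4.48-fold, while KRT8 (-0.11), KRT19 (0.00), KRT7 (0.02), GRHL2 (-0.12) and ESRP1 (0.12) were not called. CEACAM5 was near background on all lacZ arrays, and its log2 difference of -2.35 lay between -2.86 and -1.73 over the alternatives. Of 27 genes of lung epithelial differentiation 9 fell and 3 rose, 44.4% called beside 13.8% of all genes. NAPSA, an aspartic protease used to diagnose lung adenocarcinoma, had 11.62, 11.07 and 11.71 in lacZ cells and 13.29, 13.33 and 13.27 in parental cells, a 3.56-fold fall (adjusted p = 6.37e-11, limma). The surfactant protein gene SFTPA1 fell 5.33-fold with lacZ values near background, and the lineage factor NKX2-1 fell 1.91-fold. HOPX, an alveolar type 1 gene, was 14.0-fold lower by its chosen probe, but its other probes differed by -0.26 and -0.11 and were not called.

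**Figure D4:**
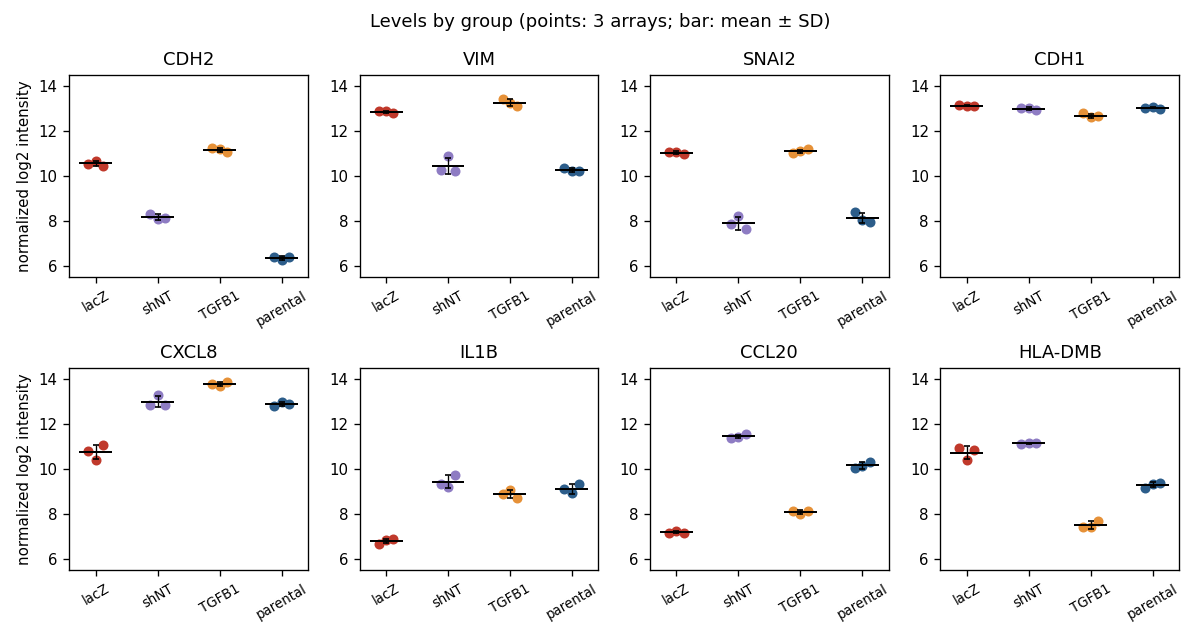
Levels (normalized log2 intensity, y axis) of 8 genes on the 3 arrays each of lacZ, shNT, TGFB1 and parental cells, with bars for the mean and SD. CDH2, VIM and SNAI2 are high in lacZ and TGFB1 cells, CDH1 lies between 12.69 and 13.12 on average in all 4 groups, and CXCL8, IL1B and CCL20 are lowest in lacZ cells.

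The mesenchymal levels of lacZ cells were close in size to those of TGFB1-treated cells for some genes. Across all genes lacZ and TGFB1 cells differed in 5474 (27.3%), with 2779 higher in lacZ (13.9%) and 2695 lower (13.4%). Differences of at least 1 log2 unit numbered 492 higher (2.45%) and 637 lower (3.18%). Higher calls made up 50.8% of all calls of any size, but 60.8% with median centring of the arrays. They made up 82.7% without normalization and 86.5% with a floor and log2 alone, where the median of all genes stood at 0.21 and 0.28. SNAI2 averaged 11.04 ± 0.05 in lacZ and 11.09 ± 0.08 in TGFB1 cells (SD, n = 3 each), and the 95% interval of the difference was -0.32 to 0.22 (adjusted p = 0.843, limma). VIM averaged 12.86 ± 0.04 in lacZ and 13.26 ± 0.15 in TGFB1 cells, a difference of -0.40 (adjusted p = 0.00951, limma), and CDH2 differed by -0.61 (adjusted p = 3.37e-05, limma). Other EMT genes lay far apart. COL5A1, a fibrillar collagen gene, was lower in lacZ than TGFB1 cells, with a log2 difference of -4.88 (adjusted p = 2.94e-21, limma), and PRRX2 and IL11 differed by -4.59 and -4.68. NAPSA was higher in lacZ than TGFB1 cells by 4.65 (adjusted p = 6.96e-20, limma), SOX2 by 4.57 and CEACAM6 by 3.30. Of the 34 mesenchymal genes 2 were higher and 18 lower in lacZ than TGFB1 cells (median -0.32), and of the 32 epithelial identity genes 25 were higher and 1 lower (median 0.76), beside 13.9% of all genes called higher and 13.4% called lower. SPP1 and OLFM4 were higher in lacZ than TGFB1 cells by 6.27 and 5.62.

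The other control virus shows which differences lacZ cells had beyond it. Both controls were set against the same parental arrays, so the direct lacZ minus shNT difference is the test. It called 4374 genes (21.8%), 2274 higher in lacZ (11.3%) and 2100 lower (10.5%). Higher calls made up 52.0% of these, 70.1% with median centring, 78.0% without normalization and 83.6% with a floor and log2 alone, where the median of all genes stood at 0.17. Of the 1412 genes higher in lacZ than parental cells, 724 were also higher than in shNT cells, 65 were lower and 623 were not called. Of the 1348 genes lower than in parental cells, 650 were also lower than in shNT cells, 43 were higher and 655 were not called. For 120 genes the lacZ and shNT differences from parental cells were called in opposite directions, with the lacZ minus shNT difference also called.

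For interferon-stimulated effectors the median direct difference was small. The list median was -1.22 for lacZ minus parental and -1.20 for shNT minus parental, a comparison that called 20.8% of genes. For lacZ minus shNT the median was -0.05, with 1 gene higher, 11 lower and 24 not called. Called effectors were thus mostly lower, beside 11.3% of all genes called higher and 10.5% called lower. OAS2 had 7.80, 7.21 and 7.32 in lacZ and 7.27, 7.09 and 7.05 in shNT cells, and the difference of 0.30 had a 95% interval of -0.07 to 0.68 (adjusted p = 0.271, limma). IRF7 differed by -0.19 (interval -0.46 to 0.09) and IFIT1 by 0.27 (interval -0.15 to 0.70). IFI27 and IFITM1 were the exceptions in size. IFI27 had 8.33, 8.04 and 8.31 in lacZ and 11.33, 10.85 and 11.22 in shNT cells, a difference of -2.91 (adjusted p = 6.58e-15, limma), and IFITM1 differed by -1.74 (adjusted p = 2.02e-08, limma). In MHC class II presentation the median was 0.20 for lacZ minus parental and 0.62 for shNT minus parental, and 0 genes were higher and 3 lower in lacZ than shNT cells.

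VIM, SNAI2 and CDH2 differed between the 2 control viruses. VIM had 12.87, 12.89 and 12.81 in lacZ and 10.26, 10.87 and 10.22 in shNT cells, a difference of 2.41 (adjusted p = 4.54e-14, limma), and shNT minus parental was not called (0.18). SNAI2 had 11.07, 11.08 and 10.98 in lacZ and 7.88, 8.20 and 7.63 in shNT cells, a difference of 3.14 (adjusted p = 5.18e-15, limma). CDH2 had 8.31, 8.07 and 8.14 in shNT cells, above parental by 1.82 and below lacZ by 2.38 in size (lacZ minus shNT adjusted p = 5.18e-15, limma). In each of these genes all lacZ arrays lay above all shNT arrays. CDH1 did not pass the test (0.12, adjusted p = 0.571, limma). Over the lists, 14 of 34 mesenchymal genes were higher, 4 lower and 16 not called in lacZ minus shNT (median 0.15), and 4 of 21 EMT transcription factors were higher, 3 lower and 14 not called (median 0.00), beside 11.3% of all genes called higher and 10.5% called lower. OLFM4 was likewise intermediate in shNT cells, with 8.94, 9.04 and 9.06, and higher in lacZ by 2.61. SPP1 was high in both, with 13.16, 12.79 and 13.13 in lacZ and 12.19, 12.73 and 12.60 in shNT cells, where the difference of 0.52 was called (adjusted p = 0.0169, limma).

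Of the 30 genes of the NF-kB list 16 were lower, 2 higher and 12 not called in lacZ minus shNT (median -0.44), beside 10.5% and 11.3% of all genes, and the shNT minus parental median was 0.14. CCL20 had 7.14, 7.23 and 7.16 in lacZ and 11.37, 11.42 and 11.53 in shNT cells, a difference of -4.26 (adjusted p = 2.56e-20, limma). DEFB4A had 8.88, 8.87 and 8.89 in lacZ and 13.50, 13.55 and 13.46 in shNT cells, a difference of -4.62 (adjusted p = 1.34e-21, limma). S100A9, a calprotectin subunit, had 9.18, 8.93 and 9.36 in lacZ and 12.85, 12.93 and 13.02 in shNT cells, a difference of -3.78 (adjusted p = 3.60e-17, limma). In all 3 genes the groups were far apart. SAA1 differed by -3.86, CHI3L2 by -3.19 and CXCL1 by -3.13. The 5 largest differences the other way were BICC1 (3.37), SNAI2 (3.14), SNORD3D (2.64), OLFM4 (2.61) and RNU4-2 (2.59). Of these BICC1 rested on scattered shNT arrays (7.46, 9.60 and 7.88) against 11.69, 11.67 and 11.69 in lacZ cells.

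Among genes of the ERBB family, the 3 largest changes were in ligand genes. EGFR had 13.30, 13.29 and 13.18 in lacZ cells and 13.09, 12.94 and 13.11 in parental cells, a 1.15-fold difference at the edge of the call (adjusted p = 0.0489, limma) that was lost with median centring (adjusted p = 0.195). Of its 3 dimmer probes 2 were called higher, by 0.57 (adjusted p = 0.00816, limma) and 0.89 (adjusted p = 7.95e-06, limma), and the third differed by 0.03 (adjusted p = 0.937, limma). Of 13 ERBB receptor and ligand genes 4 rose and 3 fell, 53.8% called beside 13.8% of all genes. The ERBB3 and ERBB4 ligand gene NRG1 had 11.41, 11.45 and 11.39 in lacZ cells and 9.97, 10.09 and 9.89 in parental cells, a 2.70-fold rise (adjusted p = 5.17e-10, limma). Of its 6 dimmer probes 1 was called, higher by 1.04 (adjusted p = 2.24e-06, limma), and the other 5, with mean levels below the array-wide median, were not, so that the difference of 1.43 became 0.34 with all probes averaged. The EGFR ligand genes HBEGF and TGFA rose 2.09-fold and 1.96-fold, EREG was not called (-0.51), and ERBB2 and ERBB3 fell by 0.36 and 0.38. NRG1 was also higher than in shNT cells by 1.03 (adjusted p = 4.06e-07, limma) and differed from TGFB1 cells by -0.03 (95% interval -0.27 to 0.21).

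Of 23 genes of ERK feedback and output 8 fell and 3 rose, 47.8% called beside 13.8% of all genes. DUSP6, the cytoplasmic ERK phosphatase, had 10.80, 10.71 and 10.57 in lacZ cells and 12.29, 12.38 and 12.11 in parental cells, a 2.96-fold fall (adjusted p = 3.43e-11, limma). The feedback genes SPRY1, SPRY4 and SPRY2 fell by 0.84, 0.82 and 0.66, ETV4 and ETV5 fell by 0.73 and 0.61, and the early gene DUSP1 rose 2.51-fold. The second DUSP6 probe fell by 2.50, whereas the 3 other SPRY4 probes were not called (0.17, -0.14 and -0.18) and SPRY4 was -0.24 with all probes averaged (adjusted p = 0.0655, limma). By its chosen probe SPRY4 differed from shNT cells by 0.00 (95% interval -0.23 to 0.22), and DUSP6 was lower in lacZ than shNT cells by 1.29 (adjusted p = 3.47e-09, limma). Of 33 other receptor kinase and ligand genes 8 rose and 6 fell, 42.4% called beside 13.8% of all genes. The IGF-binding protein gene IGFBP6 had 10.35, 10.18 and 10.43 in lacZ cells and 7.25, 7.56 and 7.45 in parental cells, a 7.49-fold rise (adjusted p = 2.27e-15, limma), and IGFBP2 fell 4.98-fold. GAS6, the ligand of the AXL receptor, rose 4.24-fold (2.08 on the log2 scale, and between 0.98 and 2.59 over the alternatives), AXL itself 1.79-fold and FGF2 2.56-fold, and KIT fell 2.60-fold (-1.38 on the log2 scale, with a lowest value of -2.16 over the alternatives).

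YAP and TEAD are the transcriptional end of the Hippo pathway. Of 20 measured target genes 10 rose, 1 fell and 9 were not called, with a median of 0.46, beside 7.04% of all genes called higher and 6.72% called lower. The secreted matricellular gene CCN1 had 12.83, 12.95 and 12.79 in lacZ cells and 11.70, 11.61 and 11.38 in parental cells, a 2.46-fold rise (adjusted p = 5.90e-12, limma). CCN2 rose 2.11-fold, F3 2.26-fold, PTPN14 2.25-fold and ANKRD1 2.02-fold. Against shNT cells 9 of the 20 were higher and 1 lower in lacZ (median 0.27), beside 11.3% and 10.5% of all genes. The shNT minus parental median was 0.00. Some of these genes stand in other lists too, such as AXL, NT5E, TGFB2 and F3.

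Of 37 extracellular matrix genes 8 rose and 2 fell, beside 7.04% and 6.72% of all genes, with a median of 0.10. After SPP1 the largest rises were the matrix trimer THBS1, with 11.12, 11.46 and 10.82 in lacZ cells and 9.43, 9.15 and 9.05 in parental cells (3.80-fold, adjusted p = 4.16e-10, limma), the crosslinking enzyme LOX (3.40-fold) and COL5A1 (2.51-fold, or 1.33 on the log2 scale, which was 0.88 with a floor and log2 alone). LOX was near background on all parental arrays, and its log2 difference of 1.76 lay between 1.19 and 2.24 over the alternatives. Of 22 proteases and inhibitors 5 rose and 2 fell, 31.8% called beside 13.8% of all genes. These were led by ADAMTS1 (3.06-fold up) and the serpin SERPINB5 (2.12-fold down). No matrix metalloproteinase of the list was called by its chosen probe, whereas another MMP7 probe fell by 0.40 (adjusted p = 0.0361, limma). Of 30 genes of TGF-beta and BMP signalling 5 rose and 7 fell, 40% called beside 13.8% of all genes. The BMP-induced inhibitor SMAD6 fell 2.45-fold, and the ID4, ID3, ID2 and ID1 genes, which BMP signalling induces, fell by 1.15, 0.44, 0.43 and 0.37. The pseudoreceptor BAMBI rose 1.76-fold. SMAD7 (0.08) and TGFB1 (0.19) were not called.

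**Figure D5:**
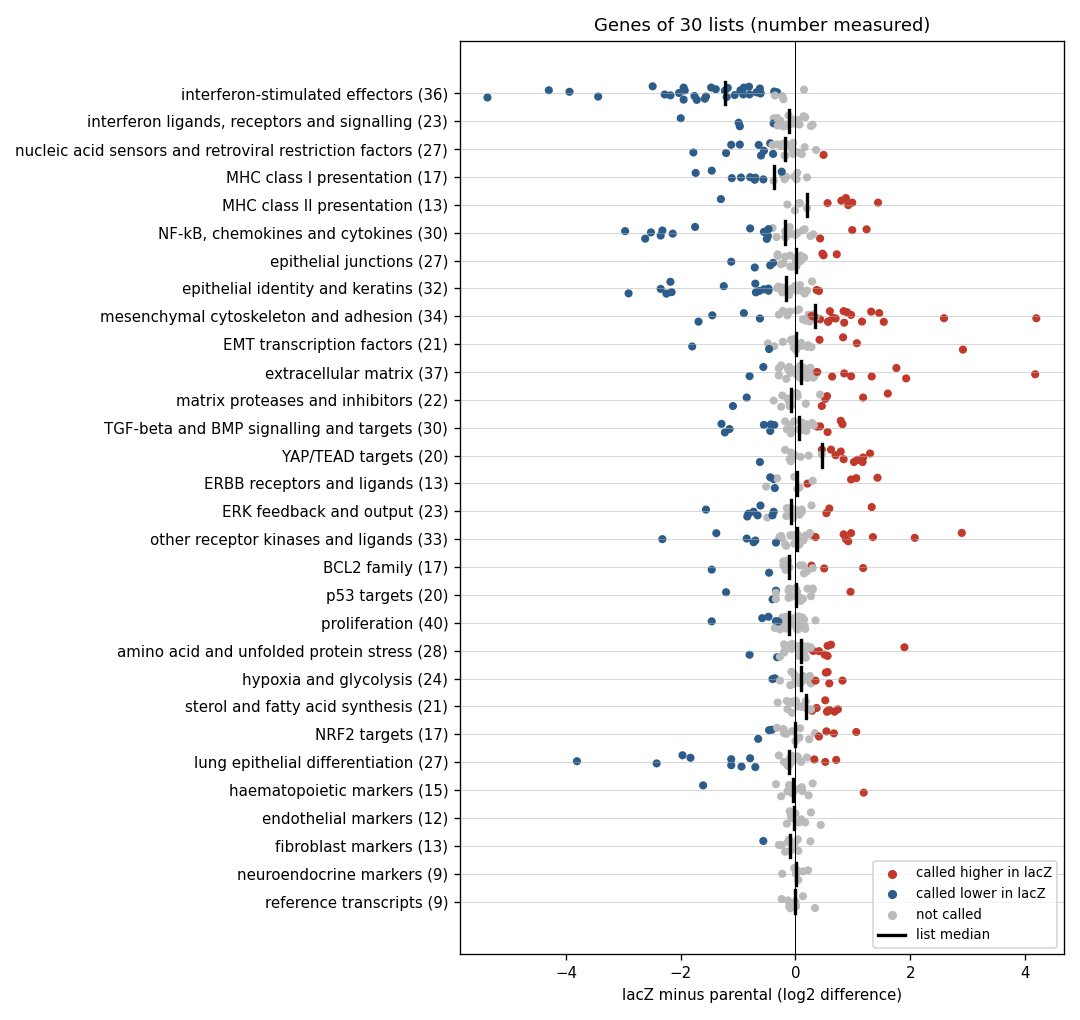
Each row is a gene list with its number of measured genes, each point is the lacZ minus parental log2 difference of a gene (x axis), red where called higher in lacZ cells, blue where called lower and grey where not called. Black bars are list medians, which lie at -1.22 for interferon-stimulated effectors, 0.46 for YAP/TEAD targets and 0.34 for mesenchymal genes, and the 9 reference transcripts at the bottom have no called gene.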

How the data were processed

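Per the labels' protocols, biotinylated cRNA for Illumina arrays was prepared from total RNA. Scanner and software are not given in the sources used here. In the table that the authors deposited, 47323 probes have linear intensity values on 18 arrays, read as neither background-subtracted nor normalized by the authors because array medians differ and no detection p-values were used. Probes with a 0 (2) were left out. Values were corrected with limma normexp (limma 3.58.1, R 4.3.3, offset 50), log2 transformed and then quantile normalized across the 18 arrays. Of the probes, 30113 had 1 symbol in the platform annotation, 8 had several and 17202 were unlisted; 30074 matched RefSeq (GRCh38.p14) by Entrez identifier. Each gene took its probe with the highest mean (6691 genes had several), giving 20046. Among called genes with another probe (1079), another probe was called the same way for 441 and the opposite way for 5.

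A limma fit of 6 group means, with 12 residual degrees of freedom, an intensity trend and Benjamini-Hochberg adjustment gave every two-sided adjusted p, called below 0.05. The 3 arrays per group limit the precision. The groups, the 30 lists (719 symbols, 672 measured) and the named-gene rule were chosen with earlier results of these data known: CDH1, CDH2, VIM, SNAI1 and EGFR; the 15 largest rises and falls without overlap; up to 4 called genes per list; and the 5 largest lacZ minus shNT differences each way. Other list members were named after their values were seen. Deviations of equally numbered lacZ and parental arrays correlated at 0.07, 0.08 and 0.22, so numbers were not taken to pair arrays. The script was tested on simulated data. Alternatives covered normalization, background offset, probe rule, filter, moderation, blocks and each array left out. Probes without a symbol were not analysed here.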

Additional observations from a re-analysis of the deposited data

Results flagged for a closer look

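For 10 named genes the lacZ and shNT differences from the same parental arrays were called in opposite directions, and the direct lacZ minus shNT difference, which tests this, was called as well. Higher in lacZ than shNT cells were BICC1 by 3.37, SNORD3D by 2.64, CCN2 by 1.57 and ATF3 by 0.88 on the log2 scale. CCN2, a YAP/TEAD target, averaged 9.45 ± 0.32 in lacZ, 7.87 ± 0.12 in shNT and 8.37 ± 0.02 in parental cells (SD, n = 3 each). Lower in lacZ than shNT cells were CCL20 at -4.26, SAA1 at -3.86, S100A9 at -3.78, CXCL1 at -3.13, GPX2 at -1.25 and LRIG1 at -0.93. CCL20 averaged 7.18 ± 0.05 in lacZ, 11.44 ± 0.08 in shNT and 10.15 ± 0.14 in parental cells. CXCL1 averaged 8.26 ± 0.16 in lacZ, 11.39 ± 0.30 in shNT and 10.61 ± 0.22 in parental cells. BICC1 against parental cells (1.09) was not called when any single lacZ or parental array was left out (limma adjusted p between 0.0573 and 0.082), and SNORD3D was lost without lacZ array 1 or parental array 1 (limma adjusted p = 0.0613 and 0.064). GPX2 against parental cells (-0.65) was -0.31 without lacZ array 2 (limma adjusted p = 0.366). LRIG1 against parental cells (-0.44) was near background in both groups. It was not called without normalization between arrays (limma adjusted p = 0.109) and was -0.26 with a floor and log2 alone. ATF3 against parental cells (0.56) was not called without normalization (limma adjusted p = 0.219) or with all probes averaged (0.26, limma adjusted p = 0.095).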

How the results depend on the processing

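Of 123 named genes called in lacZ minus parental, 92 were called in the same direction under every alternative run, 31 lost the call under some and 0 changed sign. The count of 2760 calls fell to 1091 without normalization between arrays and to 712 with a floor and log2 alone, and for lacZ minus shNT the 4374 calls became 1884 and 1456; the cause was not tested. With median centring lacZ minus parental had 2039 calls. Leaving out each array gave 2182 to 2471 calls for lacZ minus parental, 3134 to 4738 for lacZ minus shNT and 4599 to 5194 for lacZ minus TGFB1. RNU4-2, not called in lacZ minus parental (0.05), was -0.25 without lacZ array 3, -0.35 without parental array 1 and 0.39 without parental array 3. With 1 mismatch allowed, 89.7% of effector promoters held the motif, beside 29.7% of all promoters. HOPX was -0.17 with an offset of 16, where another of its probes was the brightest. The replicate number as a block gave 2959 calls. Deviations of each lacZ array from its group mean correlated best with those of the parental array of its number, a hint from the data only. The margin was small for lacZ array 2 (0.08 beside 0.06), and against shNT and TGFB1 arrays the best match was not always the same number. Averaging arrays with the same description number gave 2084 calls. Genes near background have the least certain folds: with all probes averaged, KRT20 was -2.89 and CHI3L2 -1.70.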

Other observations

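Of 21 genes of sterol and fatty acid synthesis 8 rose in lacZ cells, 0 fell and 13 were not called, with a median of 0.18, beside 7.04% of all genes called higher. DHCR7, the last enzyme of cholesterol synthesis, had 10.53, 10.97 and 10.61 in lacZ cells and 10.08, 10.02 and 9.78 in parental cells, a 1.67-fold rise (adjusted p = 8.27e-05, limma), and squalene epoxidase (SQLE) rose 1.61-fold. With a floor and log2 alone both calls were lost (limma adjusted p = 0.0956 and 0.0951). Of 28 genes of amino acid and unfolded protein stress 7 rose and 2 fell, 32.1% called beside 13.8% of all genes. PHGDH, the first enzyme of serine synthesis, had 12.89, 13.00 and 13.04 in lacZ cells and 11.16, 10.98 and 11.09 in parental cells, a 3.73-fold rise (adjusted p = 5.79e-15, limma). PHGDH was at 12.84, 12.81 and 12.60 in shNT cells, and the lacZ minus shNT difference of 0.23 was not called (adjusted p = 0.065, limma). The chaperone genes HSPA5 (0.08), DNAJB9 (-0.06) and HYOU1 (-0.19) were not called.

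Of 40 proliferation genes 0 rose and 5 fell, beside 6.72% of all genes called lower, and the largest fall was E2F2 (2.75-fold). Of 20 p53 targets 1 rose and 3 fell, 20% called beside 13.8% of all genes: GDF15 fell 2.32-fold, PLK2 rose 1.94-fold, and MDM2 (-0.06) was not called. In the BCL2 family the pro-apoptotic HRK had 7.50, 7.28 and 7.44 in lacZ cells and 6.49, 6.12 and 6.07 in parental cells, a 2.26-fold rise (adjusted p = 8.85e-08, limma) with parental values near background, while pro-apoptotic BMF fell 2.76-fold (adjusted p = 2.42e-07, limma), and its log2 difference of -1.46 was -0.73 with all its probes averaged. Of 24 hypoxia and glycolysis genes 5 rose and 2 fell, 29.2% called beside 13.8% of all genes. Of 17 NRF2 targets 4 rose and 3 fell (41.2% called), led by the aldo-keto reductase AKR1B10 (2.09-fold up).

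SPP1 and OLFM4 spanned a wide range over the 6 groups. SPP1 averaged 13.03 ± 0.21 in lacZ, 12.51 ± 0.28 in shNT, 6.75 ± 0.15 in TGFB1, 6.83 ± 0.07 in SNAIL, 12.41 ± 0.37 in CDH1 hairpin and 8.84 ± 0.15 in parental cells (SD, n = 3 each). OLFM4 averaged 11.63 ± 0.18 in lacZ, 9.01 ± 0.06 in shNT, 6.0 ± 0.29 in TGFB1, 5.94 ± 0.21 in SNAIL, 6.04 ± 0.04 in CDH1 hairpin and 6.43 ± 0.11 in parental cells. OLFM4 was thus above background in the 2 control viruses and near it in the other 4 groups, whereas SPP1 was also high in CDH1 hairpin cells.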
